A study of Mus musculus with 5 samples.

Results

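The C-type lectin receptors of Kupffer cells were followed through 10 genes, picked by their symbols from the 46983 genes of the count table: Cd207 (langerin), Clec4f, Clec1b, Clec4n, Clec4e, Clec4d, Clec7a, Clec12a, Clec10a and Mrc1. Kupffer cells, resident liver macrophages, were sequenced as poly-A RNA from mice lacking Id3 (ID3-/-, 2 libraries, replicates 2 and 3) and from mice with 1 intact copy (ID3+/-, 3 libraries, replicates 1 to 3). The Id3 protein pairs with E proteins, a class of transcription factors, and prevents them from binding DNA. Both groups were labelled Kupffer cell and liver, with no wild-type group, and the labels do not say in which cells the allele was removed; no strain or treatment is given in the sources used, and every column name ends in "3w", which they do not explain and which may or may not be an age. The 10 genes were chosen with results of this genotype contrast already known, so their genotype differences are a description, and a call names the side of an adjusted p of 0.05 in the fit over all genes and supports nothing further.

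C-type lectin receptors are membrane proteins whose extracellular lectin-like domain binds sugars, lipids or proteins on microbes and on the body's own cells. Some signal through a tyrosine motif of their own, others through the adaptor Fc receptor gamma chain, and both routes lead to the kinase Syk, while a further group carries inhibitory motifs or serves mainly in uptake. In the liver they stand on macrophages that filter portal blood, and Clec4f is known in the mouse as a marker of Kupffer cells.

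Gene counts per library came to 77322672 and 75770751 in the knockout and to 74823374 up to 80944135 in the heterozygous group. Entries naming no gene took 40.0% and 42.8% of all reads counted in knockout libraries, against 47.0% to 48.6% in heterozygous libraries. Id3 itself was at 1.01 and 1.42 TMM-normalised CPM in the knockout libraries, against 229, 221 and 256 CPM in the heterozygous libraries, so each library matched its label. The other Kupffer cell genes of a 10-gene marker list, Clec4f left out, summed to 27549 to 29417 CPM in the knockout and 23004 to 25194 CPM in the heterozygous libraries. The sum does not give the direction of each gene. Cd5l, Slc40a1 and Marco lay higher in the knockout without overlap, Vsig4, Timd4, C6 and Cdh5 lay lower without overlap, and Folr2 and Nr1h3 overlapped. Of the 10 genes, Marco passed as higher and C6 and Cdh5 as lower, and Vsig4, Cd5l, Marco and Timd4 were detected in every library, the last at 726 and 721 CPM in knockout and 844 to 871 CPM in heterozygous libraries. The sum of 10 hepatocyte markers was lower in the knockout libraries, at 2674 and 6818 CPM against 13342 to 16676 CPM. Of these genes 7 passed as lower and 0 were at 0 in every library of a group. Most of the sum was Alb, at 1718 and 4292 CPM in knockout and 9238 to 11794 CPM in heterozygous libraries. Ttr overlapped, at 114 and 411 CPM in knockout and 273 to 292 CPM in heterozygous libraries. The part of hepatocytes in the receptor results was not tested. No source states that each library is a different animal, and the p-values therefore cover the spread between these libraries only, which may be technical.

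Of the 10 receptors, 8 sit on chromosome 6, Mrc1 on chromosome 2 and Clec10a on chromosome 11. Cd207 and Clec4f are direct neighbours on the same strand, 15.0 kb apart with no annotated gene between them. The promoters of this pair are shown because their transcripts differed so unequally between genotypes, and those of Clec7a and Mrc1 because both transcripts were lower in the knockout. RefSeq's table (GRCm38.p6) held a window of 250 bases before to 50 after the start for 8 of the 10 receptors, which left Clec4n and Clec10a out. The windows are chr6:83677808-83678107 (minus strand) for Cd207, chr6:83656067-83656366 (minus) for Clec4f, chr6:129472730-129473029 (minus, the first of 2 listed starts) for Clec7a and chr2:14229164-14229463 (plus) for Mrc1. Capitals mark the E-box CANNTG, the general motif that E proteins bind, which reads the same on both strands.
Cd207: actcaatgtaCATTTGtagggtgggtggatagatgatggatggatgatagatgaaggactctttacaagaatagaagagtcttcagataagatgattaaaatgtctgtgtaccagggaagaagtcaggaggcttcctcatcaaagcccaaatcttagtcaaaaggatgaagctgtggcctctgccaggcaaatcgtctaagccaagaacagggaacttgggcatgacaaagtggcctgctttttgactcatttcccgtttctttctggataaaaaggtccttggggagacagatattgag
Clec4f: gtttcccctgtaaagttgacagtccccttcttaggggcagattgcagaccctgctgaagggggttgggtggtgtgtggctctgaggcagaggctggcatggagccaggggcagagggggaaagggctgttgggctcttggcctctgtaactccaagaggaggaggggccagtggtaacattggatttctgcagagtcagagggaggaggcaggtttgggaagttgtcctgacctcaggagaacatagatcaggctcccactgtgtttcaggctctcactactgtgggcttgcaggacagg
Clec7a: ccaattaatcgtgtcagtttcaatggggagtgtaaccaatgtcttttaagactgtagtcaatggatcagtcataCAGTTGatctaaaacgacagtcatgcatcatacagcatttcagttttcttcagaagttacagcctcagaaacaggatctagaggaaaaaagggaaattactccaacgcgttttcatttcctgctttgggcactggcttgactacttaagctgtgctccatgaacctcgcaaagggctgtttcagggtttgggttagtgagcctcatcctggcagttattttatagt
Mrc1: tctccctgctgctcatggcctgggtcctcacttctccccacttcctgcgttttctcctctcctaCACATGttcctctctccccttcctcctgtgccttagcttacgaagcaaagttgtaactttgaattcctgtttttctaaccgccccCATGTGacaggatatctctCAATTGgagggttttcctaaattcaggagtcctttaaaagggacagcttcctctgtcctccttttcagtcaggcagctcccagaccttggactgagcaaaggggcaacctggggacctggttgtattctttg
Cd207 held 1 E-box, CATTTG, whose first base lay 240 bases before the start, and Clec4f held 0. Clec7a held 1 (CAGTTG) and Mrc1 held 3 (CACATG at 186 bases before the start, CATGTG at 101 bases and CAATTG at 82 bases). Among the other receptors, Clec1b, Clec4d and Clec12a held 2 each and Clec4e held 0. An E-box occurred in 72.3% of all 32851 promoter windows of that length, with a median of 1. The variants CAGGTG (searched on both strands, in 20.2% of all windows) and CAGCTG (16.3%), both contained in CANNTG, occurred in 0 of the 8 receptor windows. GAGGAA, the core of the motif of the macrophage factor PU.1, was searched on both strands and occurred in 28.3% of all windows. It was found once in the Cd207 and Clec7a windows, 3 times in that of Mrc1 and 0 times in that of Clec4f. Among the other receptors, Clec4d held 3, Clec4e and Clec12a held 2 each and Clec1b held 0. These matches describe the letters in the windows and are not binding sites.

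The levels of the receptors spanned more than 4 orders of magnitude. Per kilobase of exon, Clec4f averaged 5915 ± 592 CPM per kb in the knockout (SD, n = 2) and 6791 ± 165 CPM per kb in the heterozygous libraries (SD, n = 3). It ranked 3 of all genes in both knockout libraries and 4 to 6 in the heterozygous libraries by this measure. Reads of Clec4f alone made up 1.53% and 1.39% of the gene counts in the knockout libraries, against 1.67%, 1.69% and 1.68% in the heterozygous libraries. Clec4n came next, at 605 ± 28.9 CPM per kb in the knockout and 342 ± 15.9 CPM per kb in the heterozygous libraries. Cd207 stood at 588 ± 1.95 CPM per kb in the knockout libraries, overlapping Clec4n there, and at 110 ± 7.63 CPM per kb in the heterozygous libraries, below all values of Clec4n. By rank per kilobase, Cd207 was at 75 and 76 of all genes in the knockout libraries and at 373, 390 and 481 in the heterozygous libraries.

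Clec1b and Clec12a formed the middle of the order, at 58.6 ± 3.79 and 38.2 ± 3.35 CPM per kb in the knockout libraries and at 57.2 ± 0.890 and 44.8 ± 1.20 CPM per kb in the heterozygous libraries. With the longest transcript in place of all exons, Clec12a came above Clec1b in the heterozygous libraries (76.6 against 67.1 CPM per kb), so their order depends on the transcript assumed. Below them came Clec7a, with 14.03 ± 0.158 CPM per kb in the knockout and 26.5 ± 3.02 CPM per kb in the heterozygous libraries. Mrc1 (6.12 ± 0.397 CPM per kb in the knockout, 15.7 ± 2.88 CPM per kb in the heterozygous libraries) stood above Clec10a in the heterozygous libraries, while their values overlapped in the knockout. Clec10a was at 6.65 ± 0.669 CPM per kb in the knockout and at 5.12 ± 0.256 CPM per kb in the heterozygous libraries. Clec4d stood at 2.14 ± 0.215 CPM per kb in knockout and 1.63 ± 0.573 CPM per kb in heterozygous libraries. Clec4e, at 0.143 ± 0.187 CPM per kb in the knockout and 0.128 ± 0.0513 CPM per kb in the heterozygous libraries, was the lowest. No other neighbours in the order overlapped within a genotype.

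**Figure D1:**
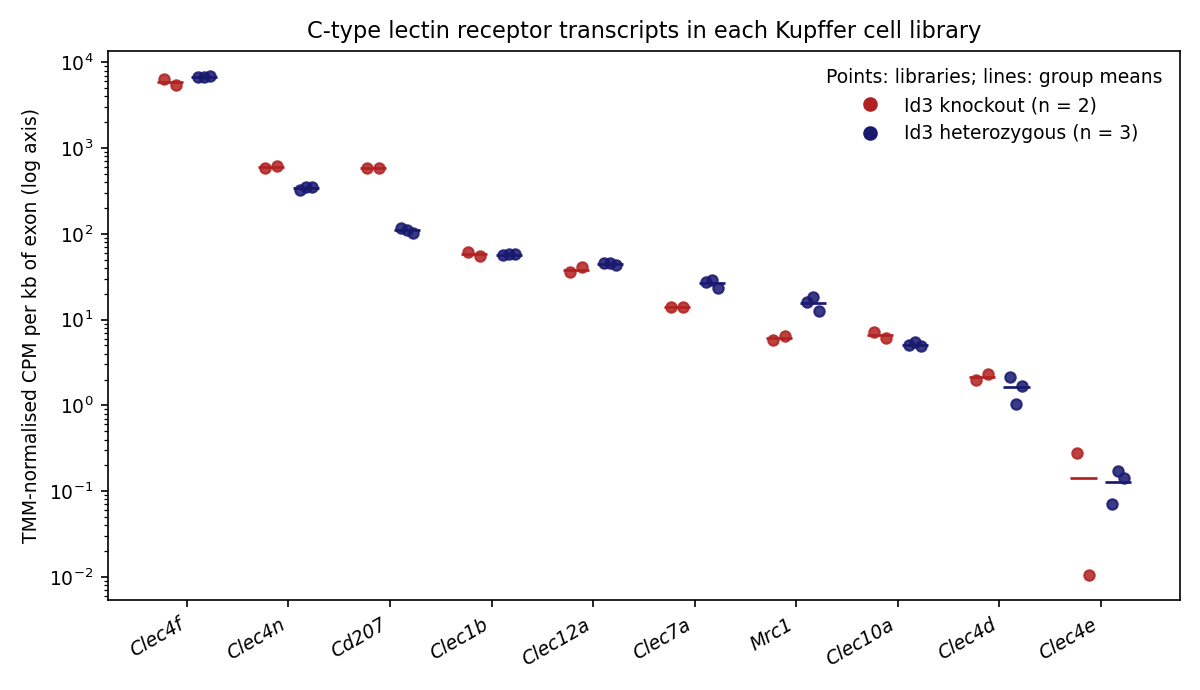
Level of each receptor in every library (TMM-normalised CPM per kb of exon, log axis), knockout in red and heterozygous in dark blue, with lines at the group means. The knockout points of Cd207 and Clec4n lie above the heterozygous points and those of Clec7a and Mrc1 below, while Clec4f stays the highest in every library.

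In the fit over all 16436 genes tested, 4 of the 10 receptors were called, Cd207 and Clec4n higher and Mrc1 and Clec7a lower in the knockout (edgeR quasi-likelihood test, adjusted p under 0.05). All 10 passed the filter on low counts. Over all genes 16.4% were called, 6.41% higher and 10.0% lower. The split of all calls was 1054 higher and 1644 lower, but 796 and 814 with offsets for transcript length and GC content. In 7 of the 10 receptors the knockout and heterozygous values lay apart, 3 with knockout higher and 4 with knockout lower, as they did in 51.5% of all genes tested (24.6% higher, 26.9% lower). The median log2 fold change (knockout minus heterozygous) of the receptors was 0.10, and that of all genes -0.02. The same count over other fits was read beside the share of genes called in that fit. It was 5 with DESeq2, which called 33.8% of the 13567 genes that it gave an adjusted p, out of 16435 with a p-value. The count was 4 with limma-voom (17.5%), RLE scaling (16.3%), upper-quartile scaling (17.9%) or library size scaling (16.7%). It was also 4 with no filter (8.85%), a filter of 1 CPM in 2 samples (28.6%), a robust fit (16.4%) or length and GC offsets (9.82%). With these offsets the 4 were a different set, Cd207, Clec4n and Clec1b as higher and Mrc1 as lower. A replicate block gave 0 (0.00608%), and a log2 fold change of at least 1 on top of the main call gave 2 (7.71%). Cd207, Clec4n and Mrc1 were called whichever library was left out. With them the count was 4 without knockout replicate 2 (5.15% of all genes, 903 in place of 2698), knockout replicate 3 (12.9%) or heterozygous replicate 3 (15.7%), and 3 without heterozygous replicate 1 (2.90%, or 463 genes) or heterozygous replicate 2 (2.09%, or 335 genes). The receptors' counts support nothing, since their choice used this contrast.

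Langerin is an endocytic receptor for mannose and related sugars, known from Langerhans cells of the skin, where it forms Birbeck granules. Cd207 (ENSMUSG00000034783.7) was at 898 and 893 CPM in the knockout libraries and at 176, 171 and 154 CPM in the heterozygous libraries. The groups lay far apart, and the values within each group lay close together. The means of 896 ± 2.96 CPM (SD, n = 2) and 167 ± 11.6 CPM (SD, n = 3) gave a ratio of 5.36 and a log2 fold change of 2.42 ± 0.09 (SE). It stayed between 2.37 and 2.46 when each library was left out. Dendritic cells of some tissues are known to express langerin. Of 10 dendritic cell markers 1 passed as higher, Batf3, at 57.7 and 59.5 CPM in knockout and 30.5 to 39.6 CPM in heterozygous libraries. The list, Batf3 included, summed to 110 and 86.0 CPM in knockout libraries, against 61.2 to 76.8 CPM in heterozygous libraries. The other 9 markers did not pass, and all of them but Mgl2 overlapped between the groups. In this list 0 genes were at 0 throughout a group, and Siglech, Cd209a and Mgl2 were under 1 CPM in both. The part of these cells in the Cd207 values was not tested. No 50-base stretch of the Cd207 transcripts occurred in a transcript of another gene.

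Clec4f (ENSMUSG00000014542.3), which binds galactose-ended sugars and glycolipids, was at 15649 and 13582 CPM in the knockout and at 16457, 16646 and 17237 CPM in the heterozygous libraries. Both knockout values were below the heterozygous ones, yet the gap between the knockout libraries was wider than that between knockout replicate 2 and the nearest heterozygous library. The log2 fold change of -0.20 ± 0.08 (SE) was not called, and it was -0.31 without knockout replicate 2 and -0.09 without knockout replicate 3. The counts of the 2 neighbouring genes can be set against each other within a library, where scaling plays no part. Cd207 counts came to 5.74% and 6.58% of Clec4f counts in the knockout libraries, against 1.07%, 1.03% and 0.893% in the heterozygous libraries. These ratios show unequal change and do not by themselves say which gene moved.

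**Figure D2:**
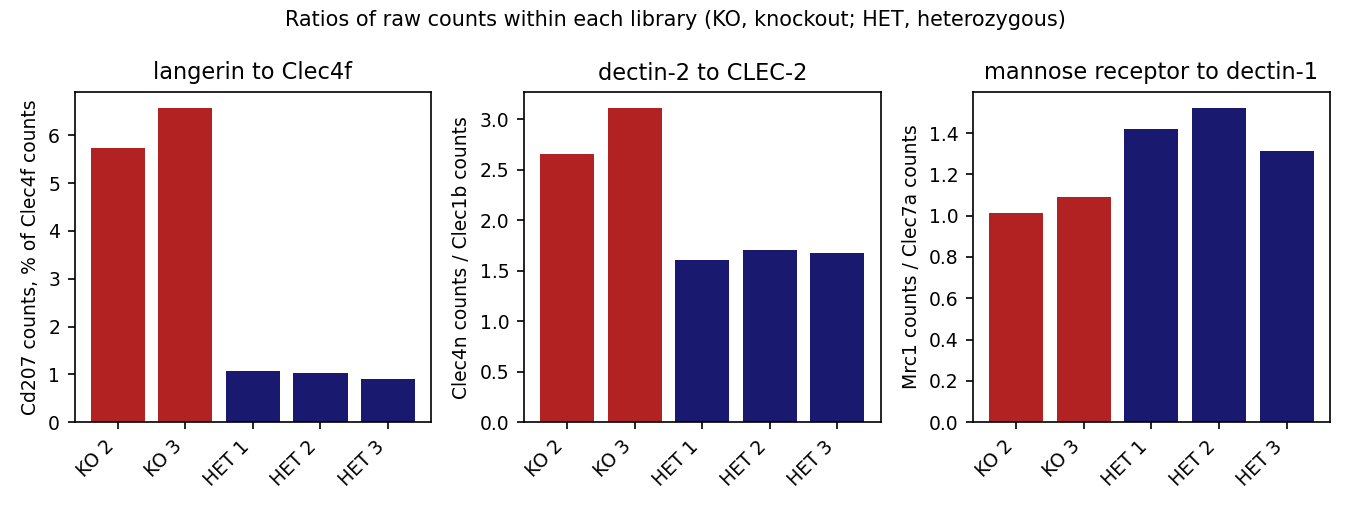
Ratios of raw counts within each library, with knockout libraries in red on the left and heterozygous libraries in dark blue: Cd207 as a percent of Clec4f, Clec4n over Clec1b, and Mrc1 over Clec7a. The first is 5.74% and 6.58% in the knockout and at most 1.07% in the heterozygous libraries, and the knockout bars lie above the heterozygous ones in the first and second panels and below them in the third. The ratios are not corrected for transcript length or GC content.

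Vax2os, the next annotated gene on the other side of Cd207, had 0 counts in all 5 libraries, and RP23-361O12.5, a pseudogene and the next gene beyond Clec4f, had 1 to 9. Within 1000 kb of Cd207 (GENCODE M21 on GRCm38, used for order and distance only), 41 other genes were tested, of which 5 were higher and 2 lower, or 17.1%, near the 16.4% of all genes. The nearest of these, Tex261 and Nagk, were chosen after their values were seen. Tex261 was at 305 ± 30.7 CPM in knockout and 214 ± 5.78 CPM in heterozygous libraries, and its difference was 0.51 ± 0.09 on the log2 scale (edgeR adjusted p = 0.0218). Nagk, an N-acetylglucosamine kinase, changed by 0.46 ± 0.10 (edgeR adjusted p = 0.0286). The median of the 41 genes was 0.19, and the only gene above Cd207, Sema4f at 3.05 ± 1.67, did not pass (edgeR adjusted p = 0.261).

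**Figure D3:**
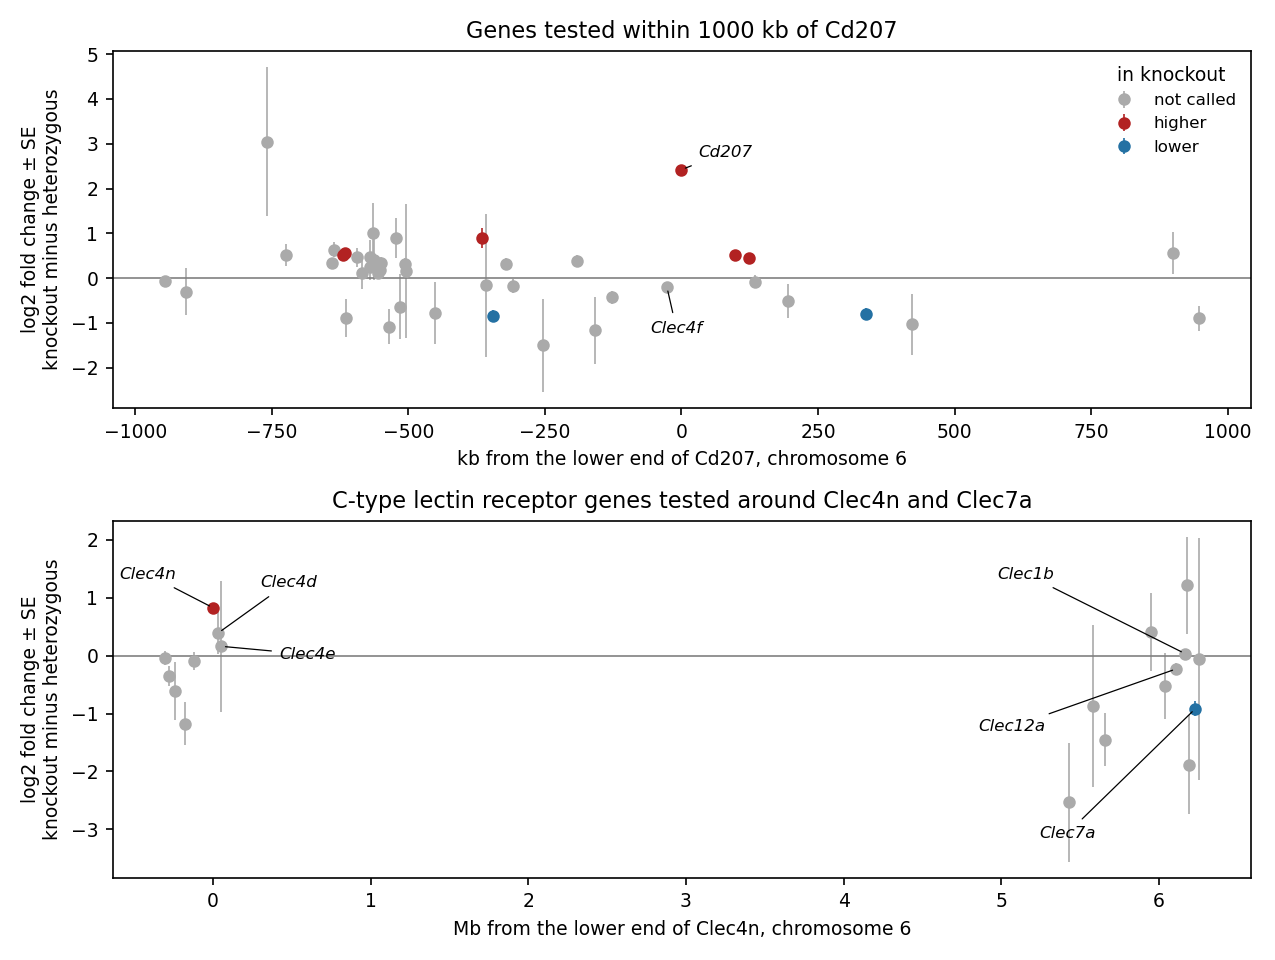
Log2 fold change (knockout minus heterozygous, ± SE) against distance on chromosome 6, for all genes tested within 1000 kb of Cd207 (upper panel) and for the C-type lectin receptor genes around Clec4n and Clec7a (lower panel), with genes called higher in red, lower in blue and not called in grey. Cd207 stands at 2.42 beside Clec4f at -0.20, and Clec4n at 0.82 is the only red point of the lower panel, with Clec7a at -0.92 the only blue.

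Dectin-2, dectin-3 and Mincle are encoded side by side by Clec4n, Clec4d and Clec4e, and signal through the Fc receptor gamma chain; they are known as receptors for fungal mannans and for mycobacterial glycolipids. Clec4n (ENSMUSG00000023349.14) was at 831 and 889 CPM in the knockout libraries and at 460, 502 and 495 CPM in the heterozygous libraries. The groups did not overlap. The means of 860 ± 41.0 CPM (SD, n = 2) and 485 ± 22.6 CPM (SD, n = 3) gave a ratio of 1.77 and a log2 fold change of 0.82 ± 0.08 (SE), which stayed between 0.79 and 0.87 in the fits without 1 library. Relative to Clec1b in the same library, Clec4n counts were 2.66 and 3.12 times as many in the knockout, against 1.60, 1.71 and 1.67 times in the heterozygous libraries. These raw ratios take no account of transcript length or GC content. With offsets for both, Clec4n was at 1.00 and Clec1b at 0.77 on the log2 scale, so the 2 genes lay closer together in that fit.

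Clec4d, whose gene begins 32.3 kb from that of Clec4n, was low in all libraries. It was at 3.18 and 3.67 CPM in the knockout and at 3.47, 1.65 and 2.72 CPM in the heterozygous libraries, which overlapped, with a log2 fold change of 0.39 ± 0.36 (SE) that was not called. Clec4e rested on 103 and 4 counts in the knockout libraries and on 29, 67 and 51 counts in the heterozygous libraries. The knockout libraries lay on either side of the heterozygous ones. Its log2 fold change was 0.16 ± 1.13 (SE), 1.12 without knockout replicate 3 and -3.58 without knockout replicate 2, so no direction can be given. Neutrophils and monocytes are known to express both genes, and summed counts of 10 neutrophil markers were 344 and 134 CPM in the knockout libraries, against 74.1 to 77.8 CPM in the heterozygous libraries. Knockout replicate 2, with the highest Clec4e value, was also the highest in this sum. In this list 5 of 7 tested genes passed as higher (S100a8, S100a9, Ngp, Csf3r and Cxcr2). Of the 10, 0 were at 0 in every library of a group, and Mpo, Elane and Cxcr2 averaged under 1 CPM in both groups. Most of the sum was Csf3r in knockout replicate 3, at 102 CPM, and in the heterozygous libraries, at 63.0 to 71.5 CPM. Ngp, Ltf and Camp rested on knockout replicate 2, with 5905, 3054 and 1330 counts there and 36, 0 and 4 in knockout replicate 3. S100a8 was at 38.7 and 15.9 CPM in knockout and 1.56 to 4.53 CPM in heterozygous libraries. Of 9 monocyte markers tested, 3 passed as higher (Ly6c2, Ace and Nr4a1) and 1 as lower (Cx3cr1). The list of 10 summed to 1211 and 1171 CPM in knockout libraries, against 753 to 972 CPM in heterozygous libraries. Most of this sum was Treml4, which did not pass, at 743 and 703 CPM in knockout and 477 to 603 CPM in heterozygous libraries. Nr4a1 was at 202 and 161 CPM in knockout and 27.8 to 41.1 CPM in heterozygous libraries. Values of Ccr2, Chil3, Plac8 and Vcan overlapped between the groups. The part of these cells in the Clec4e and Clec4d values was not tested.

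Dectin-1, the receptor for fungal beta-glucans encoded by Clec7a, and CLEC-2, encoded by Clec1b and known as the podoplanin receptor of platelets, each carry a tyrosine motif that recruits Syk. Clec7a (ENSMUSG00000079293.11) was at 36.7 and 37.3 CPM in the knockout and at 71.8, 76.9 and 61.3 CPM in the heterozygous libraries. All knockout values lay below the heterozygous ones. The knockout mean of 37.0 ± 0.418 CPM (SD, n = 2) was 52.9% of the heterozygous mean of 70.0 ± 7.97 CPM (SD, n = 3), and the log2 fold change was -0.92 ± 0.13 (SE). The call was lost without heterozygous replicate 1 (-0.90) or 2 (-0.84) and with offsets for transcript length and GC content (-0.40).

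Clec1b (ENSMUSG00000030159.15) was at 313 and 285 CPM in the knockout and at 287, 293 and 296 CPM in the heterozygous libraries. These values overlapped, with a log2 fold change of 0.03 ± 0.08 (SE). With offsets for length and GC content, however, the gene was called higher (0.77). Clec1b has 5103 bases of exon, a GC content of 37.2% and an overlap of 184 exon bases with Clec9a on the same strand, where reads may count as ambiguous. Platelets are known for Clec1b, and of the 6 platelet and megakaryocyte markers only Pf4 passed, as higher. Pf4 was at 154 and 145 CPM in the knockout and 98.8 to 104 CPM in the heterozygous libraries. It made up most of the list's sum of 161 and 150 CPM in the knockout against 102 to 115 CPM in the heterozygous libraries. Values of the other 5 markers overlapped between the groups. There were 0 genes at 0 throughout a group, and Gp1bb, Gp9 and Treml1 were under 1 CPM in both. The part of platelets in the Clec1b values was not tested.

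Clec12a encodes an inhibitory receptor for uric acid crystals with a tyrosine motif that recruits the phosphatases SHP-1 and SHP-2. It was at 198 and 225 CPM in the knockout libraries and at 253, 250 and 240 CPM in the heterozygous libraries. The groups did not overlap, but the log2 fold change of -0.23 ± 0.09 (SE) was not called. With offsets for length and GC content it was 0.39, on the other side of 0 and also not called, so its direction depends on this setting.

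Uptake receptors for sugars were represented by Mrc1, the mannose receptor CD206, and by Clec10a, which binds galactose-ended sugars. Mrc1 (ENSMUSG00000026712.3) was at 37.2 and 40.8 CPM in the knockout and at 102, 117 and 80.6 CPM in the heterozygous libraries. Even the lowest heterozygous value was well above both knockout values. The knockout mean of 39.0 ± 2.53 CPM (SD, n = 2) was 39.0% of the heterozygous mean of 99.9 ± 18.4 CPM (SD, n = 3), and the log2 fold change was -1.36 ± 0.17 (SE). It ranged from -1.49 to -1.22 in the fits without 1 library and was -0.80, still called, with offsets for length and GC content. In bulk RNA, fewer cells of a type and less RNA per cell cannot be told apart.

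Sinusoidal endothelial cells are also known to make Mrc1. Of 10 markers of these cells, 0 passed as higher and 5 as lower. The list summed to 1091 and 999 CPM in the knockout libraries, against 1176 to 1444 CPM in the heterozygous libraries, and 0 of its genes were at 0 in a group. Lyve1, itself a receptor of this endothelium, was at 4.06 and 4.24 CPM in the knockout and 27.2, 17.4 and 12.7 CPM in the heterozygous libraries. Stab2 was at 414 and 355 CPM in the knockout and 401, 378 and 371 CPM in the heterozygous libraries. The part of these cells in the Mrc1 values was not tested. Mrc1 counts were 1.01 and 1.09 times those of Clec7a in the knockout libraries, against 1.42, 1.52 and 1.31 times in the heterozygous libraries.

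Clec10a was at 20.7 and 17.9 CPM in the knockout and at 14.6, 15.7 and 14.3 CPM in the heterozygous libraries. Both knockout values were higher, and the log2 fold change of 0.38 ± 0.14 (SE) was not called. Of the 50-base stretches in its transcripts, 9.02% also occurred in transcripts of other genes, so reads may be missing from its counts. Its close relative Mgl2 had 12 and 14 counts in the knockout and 9, 0 and 1 counts in the heterozygous libraries.

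**Figure D4:**
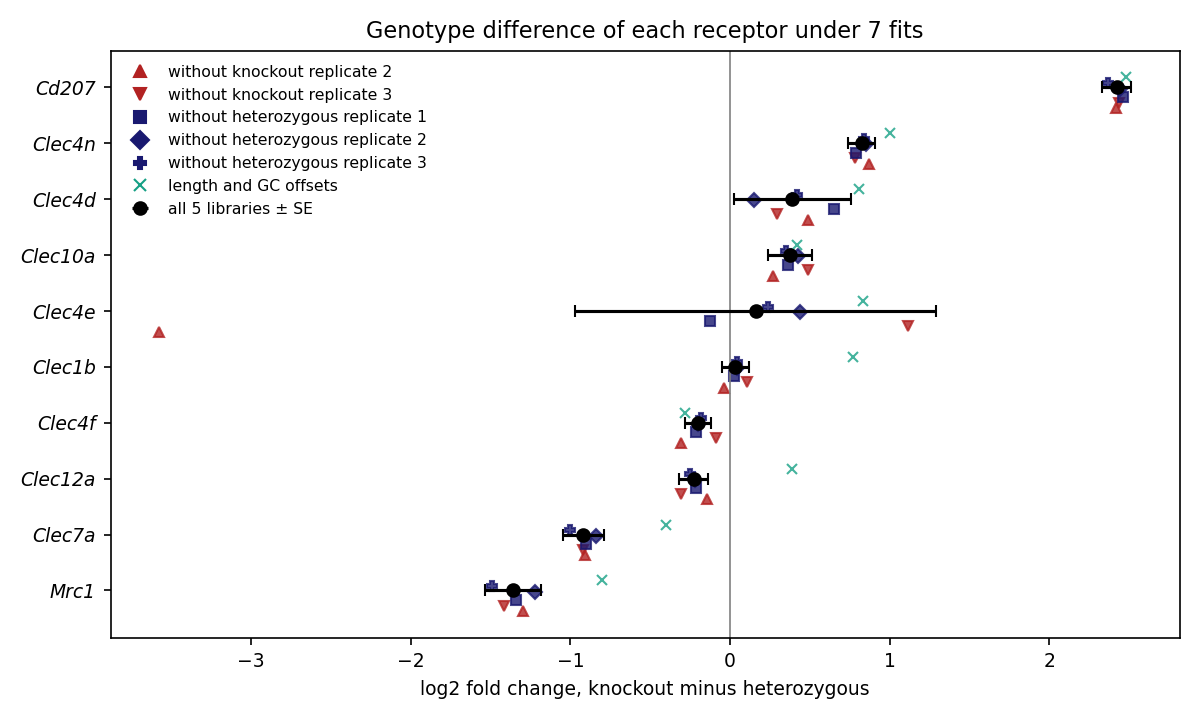
Log2 fold change of each receptor (knockout minus heterozygous), with black points for the fit with all 5 libraries ± SE and coloured symbols for the fits without 1 library or with offsets for length and GC content. Cd207 stays between 2.37 and 2.48 in all 7 fits, Clec4e runs from -3.58 to 1.12, and the offsets move Clec1b to 0.77 and Clec12a to 0.39.

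Other members of the family were taken from a list of 42 C-type lectin receptor genes, 34 of which were tested. Of these, 3 were higher and 2 lower in the knockout, that is 14.7% of those tested, near the 16.4% of all genes, and 29 did not pass. Their median log2 fold change was -0.37. The count was 1 without heterozygous replicate 1 (Ly75), 1 without heterozygous replicate 2 (Cd209f) and also 1 without knockout replicate 2.

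Cd209f, a relative of the dendritic cell lectin DC-SIGN, was at 392 and 372 CPM in the knockout and at 214, 257 and 210 CPM in the heterozygous libraries, which is 0.75 ± 0.11 on the log2 scale (edgeR adjusted p = 0.0144). Cd209g was at 58.0 and 64.6 CPM in knockout libraries, against 42.6, 43.7 and 37.8 CPM in heterozygous libraries, or 0.57 ± 0.11 on the log2 scale (edgeR adjusted p = 0.0254). Both were higher in 2 of 2 knockout libraries; the Cd209 genes are close copies of each other, so these values are uncertain. Selp (P-selectin) had 161 and 117 counts in the knockout and 27, 26 and 29 in the heterozygous libraries (log2 fold change 2.37 ± 0.40, edgeR adjusted p = 0.0184). Ly75, the endocytic receptor DEC-205, had 3 and 4 counts in the knockout and 39, 121 and 175 in the heterozygous libraries (-4.96 ± 0.92, edgeR adjusted p = 0.0220). These calls were not stable to the loss of 1 library. Cd209f lost its call without knockout replicate 2 (0.71) or heterozygous replicate 1 (0.71), and Selp lost it without knockout replicate 2 (2.10), heterozygous replicate 1 (2.32) or heterozygous replicate 2 (2.33). Cd209g kept its call only without heterozygous replicate 3 (0.51), and was between 0.50 and 0.64 without any of the other 4 libraries. Ly75 lost its call without knockout replicate 2 (-4.79), knockout replicate 3 (-5.14) or heterozygous replicate 2 (-4.92), and also with limma-voom (-4.52, adjusted p = 0.141).

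The remaining call, named after its values were seen, was that of Asgr2, a subunit of the hepatocyte asialoglycoprotein receptor. Asgr2 was at 3.82 and 8.14 CPM in the knockout and 16.4, 19.5 and 15.6 CPM in the heterozygous libraries (-1.52 ± 0.34, edgeR adjusted p = 0.0330). Of the 5 fits that left out a library, only that without knockout replicate 3 kept its call. The hepatocyte markers given above had a lower sum in the same libraries, and their part was not tested. The most abundant genes that did not pass were Cd302 and Clec4a3. Cd302 was at 422 ± 33.2 CPM in knockout and 501 ± 14.1 CPM in heterozygous libraries (-0.25 ± 0.09, edgeR adjusted p = 0.108). Clec4a3, in the same gene cluster as Clec4n, was at 207 ± 56.4 CPM in knockout and 264 ± 8.57 CPM in heterozygous libraries (-0.35 ± 0.17, edgeR adjusted p = 0.203), and passed as lower without knockout replicate 3 (-0.65). Clec4g, known from sinusoidal endothelium, was at 96.5 and 112 CPM in the knockout and 167, 129 and 131 CPM in the heterozygous libraries and did not pass (edgeR adjusted p = 0.0876).

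Of 28 adaptors and signalling proteins downstream of these receptors, 3 were higher and 1 lower, or 14.3%, near the 16.4% of all genes, with a median log2 fold change of 0.19. Fcer1g, the Fc receptor gamma chain that dectin-2 uses, was at 1662 and 1846 CPM in the knockout and at 1200, 1197 and 1428 CPM in the heterozygous libraries (0.46 ± 0.11, edgeR adjusted p = 0.0390). The Src-family kinase Fgr was at 365 and 385 CPM in the knockout and at 210, 207 and 237 CPM in the heterozygous libraries (0.78 ± 0.10, edgeR adjusted p = 0.00957). Hcst, the adaptor DAP10, was at 28.7 and 31.2 CPM in the knockout and 16.3, 18.5 and 21.4 CPM in the heterozygous libraries (0.68 ± 0.15, edgeR adjusted p = 0.0342). Lyn, a kinase that also feeds inhibitory receptors, was at 222 and 282 CPM in the knockout and at 411, 411 and 356 CPM in the heterozygous libraries (-0.64 ± 0.13, edgeR adjusted p = 0.0281).

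The kinase Syk itself was at 464 ± 29.2 CPM in the knockout (SD, n = 2) and 423 ± 32.9 CPM in the heterozygous libraries (SD, n = 3), and did not pass (0.13 ± 0.10, edgeR adjusted p = 0.409); it and Card9 stand here as chosen after their values were seen. Card9, the adaptor below Syk, was at 7.43 and 11.1 CPM in the knockout and at 5.82, 8.47 and 6.99 CPM in the heterozygous libraries, which overlapped (edgeR adjusted p = 0.356). The adaptor Tyrobp (0.31 ± 0.10, edgeR adjusted p = 0.0955) and Ptpn6, the phosphatase SHP-1 (0.30 ± 0.09, edgeR adjusted p = 0.0744), were the most abundant genes that did not pass. With offsets for length and GC content Fcer1g (0.22), Hcst (0.28) and Lyn (-0.30) lost their calls and Tyrobp went to -0.05. Without 1 library, Fcer1g (0.55) and Hcst (0.78) kept their calls only in the absence of heterozygous replicate 3. Lyn lost its call without knockout replicate 2 (-0.48), heterozygous replicate 1 (-0.61) or heterozygous replicate 2 (-0.60), and Fgr lost it without heterozygous replicate 2 (0.75). The count was 1 without knockout replicate 2 or heterozygous replicate 1, 0 without heterozygous replicate 2, where 6 genes had an unadjusted p under 0.05, and 7 without heterozygous replicate 3.

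**Figure D5:**
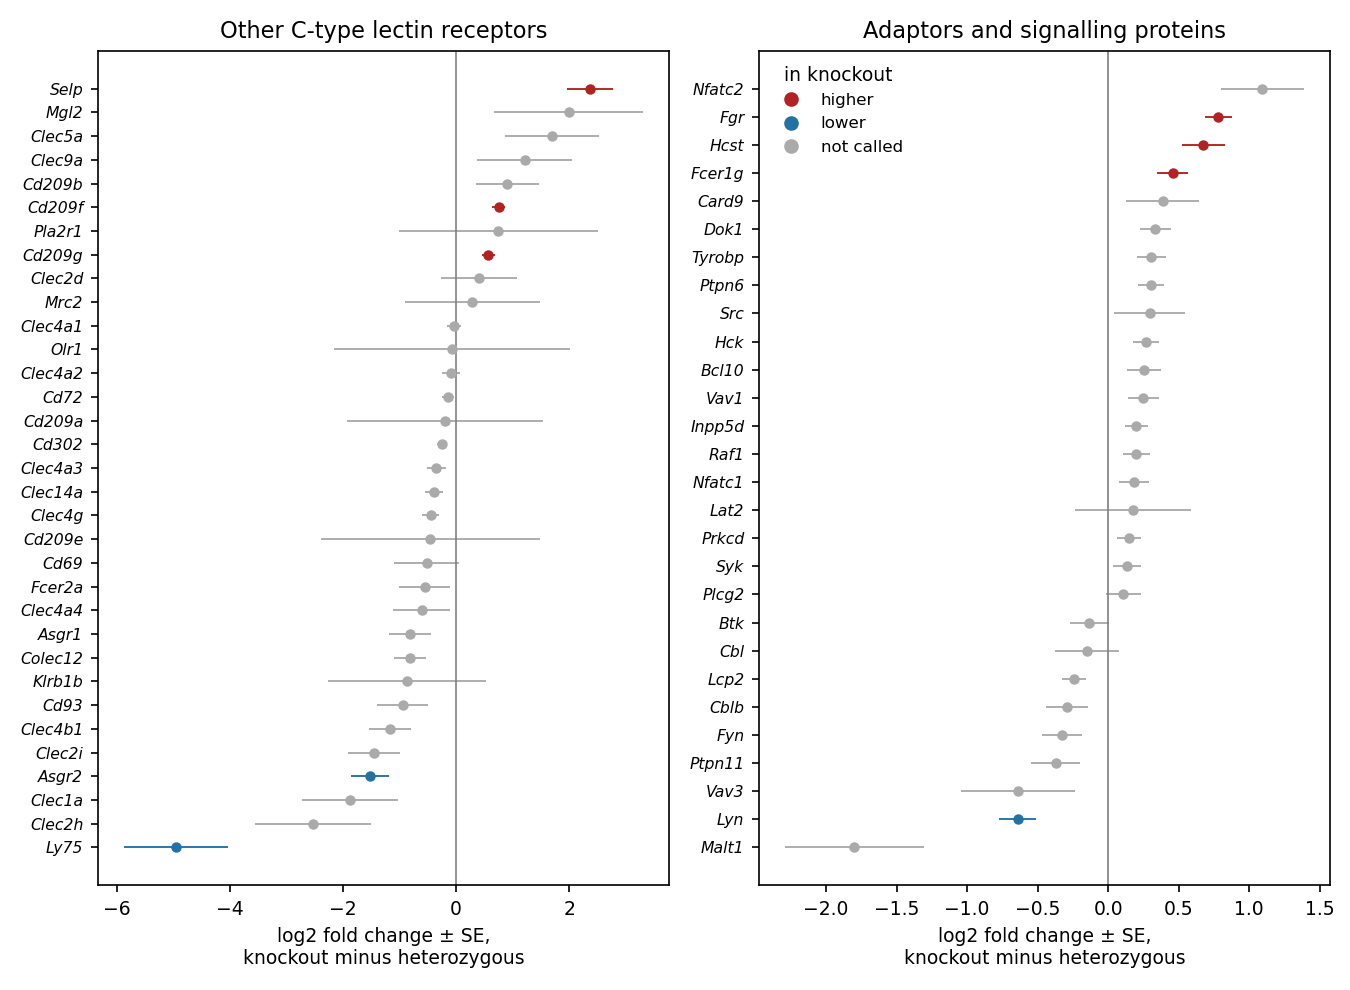
Log2 fold change (knockout minus heterozygous, ± SE) of 33 of the 34 other C-type lectin receptor genes tested (left) and of the 28 adaptors and signalling proteins (right), in red where called higher, blue where called lower and grey where not called. Selp at 2.37 and Ly75 at -4.96 bound the left panel, and Fgr, Hcst and Fcer1g are the 3 red points on the right.

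Among 7 genes of known ligands, 4 were tested and 0 passed in edgeR, while 3 had an unadjusted p under 0.05; DESeq2 called 3 of them and limma-voom 1. Lgals9 (galectin-9) was at 661 ± 87.9 CPM in knockout and 518 ± 54.9 CPM in heterozygous libraries (edgeR adjusted p = 0.111). Vim was at 87.9 ± 0.144 CPM in knockout and 124 ± 17.4 CPM in heterozygous libraries (edgeR adjusted p = 0.0551). Pdpn, which encodes the CLEC-2 ligand podoplanin, had 3 and 55 counts in the knockout and 0 in each heterozygous library, and was too low to be tested.

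The genes whose profiles over the 5 libraries lay closest to that of Cd207, by the Euclidean distance between centred log2 CPM values among 8772 named genes of at least 5 CPM, were Trib3 (distance 0.28), Nr1d1 (0.50) and Nr4a1 (0.56), which is also on the monocyte marker list. Trib3 was at 15.2 and 16.3 CPM in the knockout and 3.45, 2.59 and 2.49 CPM in the heterozygous libraries. Like Cd207 it was high in both knockout libraries and highest in replicate 1 among the heterozygous ones. Those closest to Clec4f were Rhebl1 (0.04), Sgsm3 (0.04) and Pcolce2 (0.05). Pcolce2 was at 263 and 227 CPM in the knockout and at 280, 280 and 281 CPM in the heterozygous libraries, lowest in knockout replicate 3 as Clec4f was. With 5 libraries this is a description of likeness only.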

How the data were processed

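Poly-A RNA of Kupffer cells from 5 samples was measured, 2 knockout and 3 heterozygous. Per the labels' protocols, tissue was disrupted through a 100 µm filter, RNA was amplified with SMART-seq V4, and 10 ng of cDNA went into libraries with 8 PCR cycles. The deposited table gives whole-number read counts for each gene, not normalised, as its values show; the submitters' processing notes name HTSeq 0.5.4, DESeq 1.18.0, R 3.1.2 and build mm9. The aligner, the annotation and the strand option are not given in the sources used.

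The main test was the quasi-likelihood test of edgeR 4.0.16 (R 4.3.3) after TMM scaling and filterByExpr, with no covariate and p-values adjusted by Benjamini-Hochberg over 16436 genes. Entries naming no gene entered neither library sizes nor tests. Levels are TMM-normalised CPM, also divided by exon length from GENCODE M21 (46488 of 46983 IDs matched), which belongs to a later build. The SE is the log2 fold change divided by the square root of F. Multiply aligned reads, 31.3% and 32.8% of everything counted in the knockout and 36.2% to 39.4% in the heterozygous libraries, were not counted for any gene. For 2 against 3 samples the smallest exact permutation p is 0.1. The edgeR fit and the likeness measure were tested on simulated data. Members and lists were chosen with earlier results of these data known. Genes were named as follows: the 10 receptors, Id3, in each list up to 4 genes that passed (smallest p first) and the 2 most abundant that did not, the 3 genes nearest in profile to Cd207 and to Clec4f, and the genes beside them. Others are marked as chosen after their values were seen. The same holds for Sema4f, Clec4g, Mgl2 and Pdpn, and for each marker gene named from the cell type lists, such as Lyve1 and Stab2. Alternatives were DESeq2 1.42.0, limma-voom (limma 3.58.1), other scalings and filters, a replicate block, a robust fit, offsets for length and GC content, a minimum fold, and leaving out each library. For 1 gene of the list of other lectin receptors, its own result is not reported here; it stays in the counts.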

Additional observations from a re-analysis of the deposited data

How the results depend on the processing

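The counts of called receptors stayed within 1.5 times of 4 except with the replicate block or a minimum fold: 3 to 4 when a library was left out, 5 with DESeq2 (Clec10a added), and 4 with limma-voom, the other scalings, filters and the robust fit, all of which called Cd207, Clec4n, Clec7a and Mrc1. Offsets for length and GC content also gave 4, but with Clec1b in place of Clec7a. In the main fit, asking also for a log2 fold change of 1 or more in either direction left 2 receptors (Cd207 and Mrc1) and 1267 genes in all. The labels give same-numbered libraries only a number in common. Their deviations from the group means correlated at -0.03 (replicate 2) and -0.06 (replicate 3). With 2 knockout libraries the deviations of these mirror each other, so the correlations cannot decide whether the numbers mark a pairing. The replicate block left 1 residual degree of freedom and gave 1 call over all genes (3497 at an unadjusted p under 0.05) and 0 among the receptors, the other lectin receptors and the signalling genes (4, 7 and 7 unadjusted). DESeq2 gave 4581 calls over all genes, 9 among the other lectin receptors and 11 among the signalling genes, the filter of 1 CPM in 2 samples gave 8 among the signalling genes, and offsets for length and GC content gave 1610 over all genes. Leaving out 1 library gave 335 to 2540 calls over all genes, 1 to 6 among the other lectin receptors and 0 to 7 among the signalling genes. Directions turned for genes that were not called: Clec1b without knockout replicate 2 (-0.035; the fits without 1 library ran from -0.035 to 0.11), Clec4e with limma-voom (-1.10), with the block (-1.30), without knockout replicate 2 (-3.58, the lowest of a range up to 1.12) or without heterozygous replicate 1 (-0.13), and, with length and GC offsets, Clec12a (0.39), Tyrobp (-0.051) and Pcolce2 (0.15). The cause was not tested. At 4 to 103 counts per library, depth limits what can be said of Clec4e.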
